A study of Mus musculus with 18 samples.

Results

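The microRNAs described here are the arms of 5 hairpins that lie one after another in an intron of Clcn5, with miR-188 among them. They were chosen by name from a list of 9 mature arms, named in the table with the mouse prefix: mmu-miR-188-5p, mmu-miR-188-3p, mmu-miR-362-5p, mmu-miR-362-3p, mmu-miR-500-3p, mmu-miR-501-3p, mmu-miR-532-5p, mmu-miR-532-3p and mmu-miR-660-5p. The prefix is left out below. Of these 9, 8 had a row among the 1184 named entries of the deposited table, each a single row, and all 8 passed the filter on low counts; miR-660-5p is not analysed here. The other arms of the same hairpins, miR-500-5p and miR-501-5p, were read beside them. The data were small RNA reads of mouse kidney in 18 libraries, 6 in each of 3 groups. In the germacrone group, C57BL/KsJ mice with diabetic nephropathy (DN) received germacrone, a plant sesquiterpene, at 10 mg/kg per day. The DN group held C57BL/KsJ mice given 0.9% saline, and the control group held C57BL/6J mice given 0.9% saline.

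Both diabetic groups were of another strain than the controls, and an effect of strain and one of disease cannot be told apart in any comparison with control. The labels give neither age nor sex, nor what made the C57BL/KsJ mice diabetic, nor whether the libraries of a group came from separate animals, and p-values then measure only the spread between these libraries.

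A microRNA hairpin is cut from a longer transcript by Drosha and then by Dicer into a short duplex. Either strand, the 5p or the 3p arm, can be loaded into an Argonaute protein, which pairs bases 2 to 8 of the arm, its seed, with messenger RNAs and lowers their output. Hairpins in an intron can be made from the transcript of the host gene. Clcn5 encodes an endosomal chloride/proton exchanger of proximal tubule cells, and loss of the human gene causes Dent disease. The arms themselves are known mostly from other tissues: miR-188 from the fate of mouse bone marrow stromal cells, miR-362-5p from human tumours, where it represses CYLD, miR-501-3p from rat neurons, where it represses an AMPA receptor subunit, and miR-532-5p from human melanoma, where it represses RUNX3. Small RNA libraries do not hold the Clcn5 messenger RNA, so the host gene was not measured.

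In the mouse assembly GRCm38.p6 the hairpins lay on the minus strand of the X chromosome, within 10815 bases, in the order of transcription Mir532, Mir188, Mir362, Mir501 and Mir500. Which build the authors mapped to is unknown here. Mir532 (chrX:7248402-7248497) and Mir188 (chrX:7247989-7248056) stood 345 bases apart. After a gap of 5942 bases followed Mir362 (chrX:7241982-7242046), then Mir501 (chrX:7241243-7241351) 630 bases on and Mir500 (chrX:7237683-7237774) another 3468 bases on. In 3 of the 5 annotated Clcn5 transcripts all 5 hairpins lay in 1 intron of 103648 bases (chrX:7213011-7316658), intron 3 of Clcn5-202 and Clcn5-204 and intron 2 of Clcn5-203, and 0 of the hairpins lay in an exon.

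The mature sequences of RefSeq (GRCm38.p6) are printed because the cluster is a family in part, which bears on which arms could be counted for each other. They were found for 9 of the 10 measured arms, miR-532-5p being the one without. Capitals mark the seed, bases 2 to 8.
miR-188-5p: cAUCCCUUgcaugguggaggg
miR-188-3p: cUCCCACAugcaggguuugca
miR-362-5p: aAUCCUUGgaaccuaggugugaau
miR-362-3p: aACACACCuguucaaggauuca
miR-500-5p: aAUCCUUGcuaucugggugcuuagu
miR-500-3p: aAUGCACCugggcaaggguuca
miR-501-5p: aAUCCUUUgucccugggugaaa
miR-501-3p: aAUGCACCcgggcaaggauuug
miR-532-3p: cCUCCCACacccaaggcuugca

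The seed AUGCACC was shared by 2 arms, miR-500-3p and miR-501-3p, and the seed AUCCUUG by 2 others, miR-362-5p and miR-500-5p. The arms miR-500-3p and miR-501-3p differed at 4 of 22 bases (81.8% identity), and miR-362-3p differed from miR-500-3p at 5 of 22 and from miR-501-3p at 7 of 22. The sequences of miR-500-3p and miR-501-3p first differ just after the seed, so a read that only ended early would still differ between them. A shortened read with an error at that base could be given to the wrong arm. The labels do not say how such reads were placed. The miR-188 arms shared a seed with no other arm of the cluster, although the seed of miR-188-3p and that of miR-532-3p overlap in UCCCAC, shifted by 1 base. The Mir188 hairpin is printed with its 2 arms in capitals, because the contrast between those arms opens the results.
Mir188: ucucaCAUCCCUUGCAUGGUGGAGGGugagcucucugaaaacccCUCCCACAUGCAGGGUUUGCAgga

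Depth was alike in the groups: libraries held 3657879 to 5972069 reads in the germacrone group, 3645173 to 7239343 in the DN group and 3700672 to 6654035 in the control group. The DN 2, DN 3 and control 2 libraries stood apart, with a median Pearson r with the other libraries of their group of 0.896, 0.926 and 0.946, against 0.958 to 0.973 for the other 15. All 8 markers of renal epithelium, such as miR-192-5p, were present and summed to 173118 to 237845 CPM (reads of an arm scaled to a common library size) in the germacrone group, 62309 to 216316 in the DN group and 116195 to 174964 in the control group, with DN 2 the lowest of all. All 7 leukocyte markers were present at 1642 to 8799 CPM in the germacrone group, 1505 to 25234 in the DN group and 2921 to 3910 in the control group, with medians of 1828, 1767 and 3525 CPM in that order. Of the germacrone libraries 4 of 6, and of the DN libraries 5 of 6, lay below every control library, while DN 2 (25234 CPM) and germacrone 6 (8799 CPM) were the highest of all 18. The part of leukocyte RNA in the comparisons with control was not tested. The 4 of 5 red blood cell markers found summed to 1346 to 5362 CPM in the germacrone group, 1272 to 4286 in the DN group and 1817 to 3944 in the control group. The 2 endothelial markers summed to 16215 to 25971 CPM in the germacrone group, 8005 to 23313 in the DN group and 9170 to 24120 in the control group. The 5 smooth muscle, mesangium and pericyte markers summed to 41424 to 60804 CPM in the germacrone group, 22962 to 52332 in the DN group and 27428 to 59154 in the control group. The 4 neuron and endocrine markers summed to 549 to 767 CPM in the germacrone group, 429 to 647 in the DN group and 353 to 973 in the control group, and the 3 striated muscle markers to 51.4 to 124, 42.2 to 108 and 76.3 to 298 CPM in that order. The liver marker miR-122-5p had 5.58 to 42.9 CPM in the germacrone group, 5.80 to 118 in the DN group and 8.03 to 46.1 in the control group. Of these markers, miR-124-3p and miR-206-3p were listed at 0 in some libraries. In whole kidney, fewer cells of a type and less RNA per cell cannot be told apart.

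The cluster was a small part of the kidney microRNA pool and its 5 hairpins were unequal. Its 10 arms together made 1752 ± 246 CPM in the germacrone group and 1865 ± 411 CPM in the DN group (SD, n = 6 each). In the control group they made 1712 ± 283 CPM (SD, n = 6). Of the common library size that CPM is scaled to, these were 0.175%, 0.186% and 0.171% in that order. Shares of the unscaled reads were not computed and may order the groups otherwise. Over the 18 libraries the miR-532 hairpin averaged 622 CPM, miR-362 488 CPM, miR-501 418 CPM, miR-500 199.7 CPM and miR-188 48.2 CPM. The order of the miR-362 and miR-501 hairpins was not the same in each group: miR-362 and miR-501 averaged 565 and 346 CPM in the germacrone group, 486 and 473 CPM in the DN group, and 413 and 435 CPM in the control group. CPM here is scaled by edgeR's TMM factors and counts whole mature arms, and the arms are of nearly the same length. Mir532 and Mir188, the closest neighbours on the chromosome at 345 bases, were thus the highest and the lowest of the 5 hairpins.

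The order of the single arms held in part. miR-532-5p led at a mean of 536 CPM over the 18 libraries, rank 125 of the 619 entries tested, and was above miR-501-3p (368 CPM) in 15 of 18 libraries. miR-501-3p and miR-362-5p (332 CPM) did not differ beyond their spread, since the one was above the other in 9 of 18 libraries (2 of 6 germacrone, 3 of 6 DN and 4 of 6 control libraries). miR-362-5p was above miR-500-3p (199 CPM) in 16 of 18, miR-500-3p above miR-362-3p (156 CPM) in 11 of 18, and miR-362-3p above miR-532-3p (86.5 CPM) in 16 of 18. The order of miR-500-3p and miR-362-3p differed by group, with miR-500-3p above in 1 of 6 germacrone, 4 of 6 DN and 6 of 6 control libraries. miR-532-3p was above miR-501-5p (49.7 CPM) in 18 of 18, while miR-501-5p and miR-188-5p (46.1 CPM) changed places, each above the other in 9 of 18, with miR-501-5p above in 2 of 6 germacrone, 2 of 6 DN and 5 of 6 control libraries. miR-188-3p, at 2.17 CPM, ranked 597 of 619, and only miR-500-5p, at 1.01 CPM and below the filter, was lower on average.

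**Figure D1:**
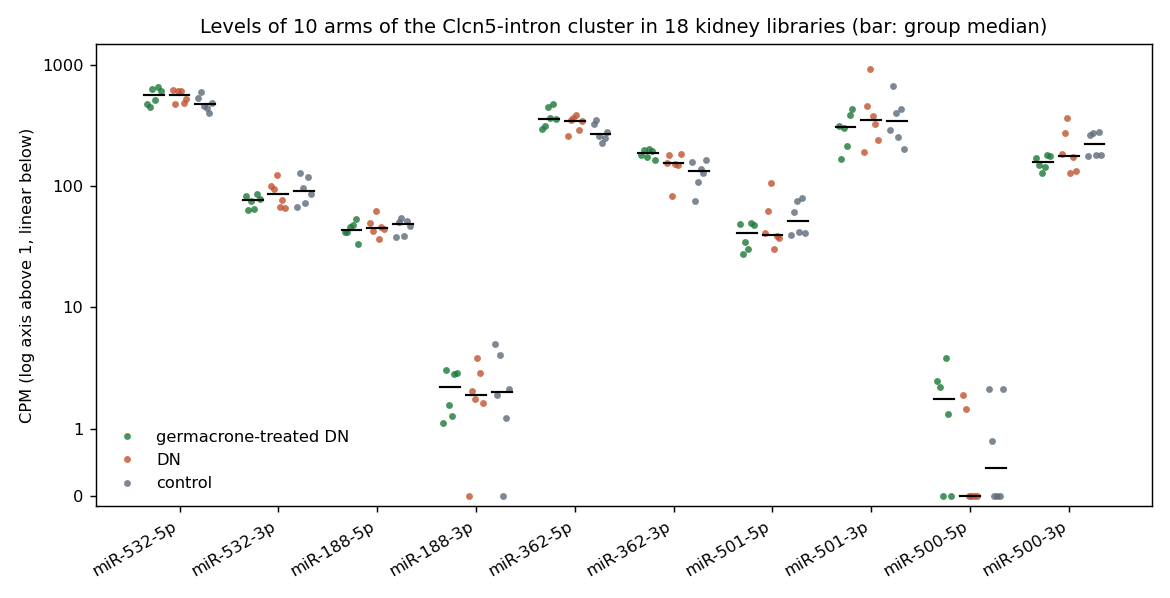
CPM of the 10 arms in each of the 18 libraries, on an axis that is logarithmic above 1 and linear below, with hairpins in the order of transcription; points are libraries (germacrone-treated DN, DN, control) and bars are group medians. Within the miR-188 hairpin the 5p arm lies between 33.4 and 62.5 CPM and the 3p arm between 0 and 5.01 CPM, and for every arm the groups overlap.

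miR-188 gave nearly all its reads from the 5p arm. miR-188-5p had a lowest, median and highest value of 33.4, 44.0 and 53.4 CPM in the germacrone group, 36.6, 45.3 and 62.5 CPM in the DN group, and 38.0, 49.0 and 55.1 CPM in the control group. The ranges lay almost on top of each other, and with a coefficient of variation of 15.7% over the 18 libraries miR-188-5p was among the steadier arms of the cluster, near miR-532-5p at 14.6%. miR-188-3p had 5, 11, 5, 5, 15 and 14 reads in germacrone libraries 1 to 6, 0, 14, 8, 25, 13 and 8 reads in DN libraries 1 to 6, and 26, 14, 22, 0, 5 and 9 reads in control libraries 1 to 6. Its extremes, the highest value and a listed 0, both stood in the control group, and DN 1 was also listed at 0.

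A listed 0 of miR-188-3p need not be a measured absence. Among the named entries of the table, 7349 values were 0 and 13963 were above 0. None was exactly 1, 120 lay above 0 and under 2, 20 were exactly 2, 182 were 3, 141 were 4 and 648 were 5. Values of a few reads are thus scarce but not absent in the table, and no upper limit is given for a listed 0. The 5p arm held 95.9% of the miR-188 reads in the median germacrone library (range 92.0% to 97.4%), 96.0% in the median DN library (90.6% to 100%) and 96.0% in the median control library (88.3% to 100%). The exact (Clopper-Pearson) 95% interval of the lowest share, control 1 with 197 reads on 5p and 26 on 3p, was 83.4% to 92.2%, which lies below the interval of 94.0% to 98.0% of control 2, so libraries of the same group differed beyond counting error. Reads are not independent molecules, and these intervals cover counting error only.

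The hairpins of the cluster favoured different arms. The 5p arm led in miR-188, miR-532 and miR-362, and the 3p arm in miR-501 and miR-500. For miR-532 the 5p share was 88.5% in the median germacrone library (85.2% to 89.4%), 86.2% in the median DN library (83.2% to 89.96%) and 83.7% in the median control library (77.2% to 88.9%). For miR-362 it was 66.4% (61.5% to 72.1%) in the germacrone group, 66.2% (62.6% to 81.7%) in the DN group and 66.6% (62.4% to 82.2%) in the control group, with DN 3 and control 2 the highest of their groups. For miR-501 the 5p share was 11.8% (9.86% to 14.1%) in the germacrone group, 11.3% (7.42% to 17.5%) in the DN group and 14.9% (8.26% to 17.0%) in the control group.

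miR-500 was the most one-sided hairpin towards its 3p arm. miR-500-5p had 11, 8, 0, 15, 7 and 0 reads in germacrone libraries 1 to 6, 7, 10, 0, 0, 0 and 0 reads in DN libraries 1 to 6, and 11, 6, 0, 0, 0 and 9 reads in control libraries 1 to 6, beside 408 to 1942 reads of miR-500-3p in the same 18 libraries. Thus the 5p arms of miR-362 and miR-500, which carry the same seed AUCCUUG in the list above, were present at 332 and 1.01 CPM on average.

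**Figure D2:**
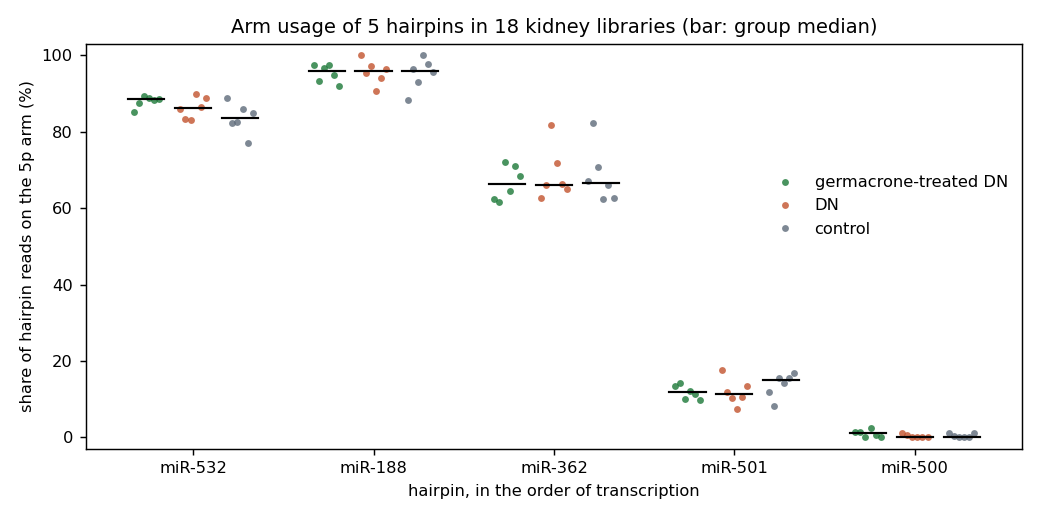
Share of the reads of each hairpin that lie on the 5p arm (percent, y axis), for 5 hairpins in the order of transcription (x axis); points are libraries and bars are group medians. miR-188 and miR-532 sit at 77.2% or above, miR-362 between 61.5% and 82.2%, and miR-501 and miR-500 at 17.5% or below, in all 3 groups.

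The first comparison set germacrone-treated DN kidneys against kidneys of DN mice given saline. No vehicle is listed for the germacrone group, so an effect of the compound and one of its vehicle cannot be told apart. No arm of the cluster passed the test: 0 of 8 listed arms had an adjusted p under 0.05, and 0 of the 619 entries tested did (0%; edgeR quasi-likelihood test, 2-sided, Benjamini-Hochberg over the 619). At an unadjusted p under 0.05 there were again 0 of 8 listed arms, beside 23 of the 619 entries (3.72%). DESeq2 and limma-voom also called 0 entries. Of the 9 tested arms of the cluster, 4 had a log2 fold change above 0, beside 42.2% of all entries. miR-188-5p averaged 44.1 ± 6.79 CPM in the germacrone group and 47.0 ± 8.69 CPM in the DN group (SD, n = 6 each). Its log2 fold change was -0.093 (SE 0.177, 95% CI -0.46 to 0.28, edgeR adjusted p = 0.938), and changes within that interval remain possible. miR-188-3p averaged 2.11 ± 0.886 CPM and 2.02 ± 1.29 CPM in the same groups, with a log2 fold change of 0.049 (SE 0.722, 95% CI -1.46 to 1.56), an interval that covers large changes in both directions.

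Among the neighbours the fold changes had mixed signs in that comparison, none past the test. miR-362-3p averaged 186 ± 14.8 CPM in the germacrone group and 151 ± 36.7 CPM in the DN group, a log2 fold change of 0.30 (SE 0.208, edgeR adjusted p = 0.800), and 6 of 6 germacrone libraries lay above the DN median. miR-500-3p averaged 159 ± 20.8 CPM in the germacrone group and 210 ± 92.9 CPM in the DN group (log2 fold change -0.40, SE 0.243, edgeR adjusted p = 0.800). miR-501-3p averaged 306 ± 102 CPM in the germacrone group and 420 ± 264 CPM in the DN group (log2 fold change -0.46, SE 0.360, edgeR adjusted p = 0.800). The high DN means of miR-500-3p and miR-501-3p rest on the libraries that stood apart: DN 3 had 367 CPM of miR-500-3p and 924 CPM of miR-501-3p, the highest of all 18 libraries. Without DN 2, DN 3 and control 2 the log2 fold changes were 0.03 for miR-500-3p and 0.10 for miR-501-3p, against -0.40 and -0.46 with all libraries. miR-532-5p averaged 558 ± 87.8 CPM in the germacrone group and 557 ± 66.5 CPM in the DN group, a log2 fold change of 0.0019 (SE 0.153, 95% CI -0.32 to 0.32).

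The second comparison set DN kidneys against control kidneys. Again 0 of 8 listed arms and 0 of 619 entries (0%) passed the adjusted threshold of edgeR's test, and 0 of 8 arms had an unadjusted p under 0.05, beside 47 of the 619 entries (7.59%). DESeq2 called 4 entries and limma-voom with sample weights 91. Of the 9 tested arms, 4 had a log2 fold change above 0, beside 56.5% of all entries. miR-188-5p averaged 47.0 ± 8.69 CPM in the DN group and 47.1 ± 7.03 CPM in the control group, a log2 fold change of -0.0014 (SE 0.177, 95% CI -0.37 to 0.37). miR-188-3p averaged 2.02 ± 1.29 CPM in the DN group and 2.39 ± 1.85 CPM in the control group (log2 fold change -0.22, SE 0.713, 95% CI -1.71 to 1.27). miR-362-5p averaged 335 ± 47.8 CPM in the DN group and 283 ± 46.7 CPM in the control group, a log2 fold change of 0.24 (SE 0.169, edgeR adjusted p = 0.720), with 5 of 6 DN libraries above the control median. miR-532-5p had 6 of 6 DN libraries above the control median, at a log2 fold change of 0.18 (SE 0.153, edgeR adjusted p = 0.820), and its groups overlapped all the same. The log2 fold changes of miR-500-3p, miR-501-5p and miR-532-3p were all -0.11. Under limma-voom, which gives less weight to libraries that stand apart, miR-500-3p had -0.54 and was called (limma adjusted p = 0.0448), and without DN 2, DN 3 and control 2 edgeR gave -0.53 (adjusted p = 0.133). The log2 fold change of miR-501-3p was 0.15 (SE 0.360), and -0.19 without those 3 libraries.

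The third comparison set germacrone-treated DN kidneys against control kidneys, which differ in disease, strain and compound at once. It shares its groups with the other comparisons and is no separate evidence from them. Here 0 of 8 listed arms and 0 of 619 entries (0%) passed the adjusted threshold of edgeR's test. At an unadjusted p under 0.05 there were 3 of 8 arms, beside 121 of the 619 entries (19.5%), of which 66 were higher in the germacrone group (10.7%) and 55 lower (8.89%). The 3 arms were miR-362-5p and miR-362-3p, both higher in the germacrone group, and miR-500-3p, which was lower. Other tools made calls: DESeq2 called 24 of all entries and limma-voom with sample weights 106, among them miR-362-3p (log2 fold change 0.48, limma adjusted p = 0.0296), miR-362-5p (0.44, limma adjusted p = 0.0434) and miR-500-3p (-0.54, limma adjusted p = 0.0369). The groups were separated, with no overlap, in 32 of the 619 entries (5.17%) and in 0 of the arms. Of the 9 tested arms, 3 had a log2 fold change above 0, beside 49.8% of all entries.

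miR-362-5p had a lowest, median and highest value of 299, 362.5 and 478 CPM in the germacrone group and 230, 269.8 and 352 CPM in the control group. Its 6 germacrone libraries were all above the control median, but the ranges overlapped. The log2 fold change was 0.42 (SE 0.169, 95% CI 0.067 to 0.77, 1.34-fold, edgeR adjusted p = 0.193). miR-362-3p had 165.1, 187.8 and 203 CPM in the germacrone group and 76.1, 134 and 166 CPM in the control group. The groups overlapped here only in that germacrone 6, at 165.1 CPM, lay under control 6, at 165.99 CPM. The log2 fold change of miR-362-3p was 0.52 (SE 0.208, 95% CI 0.090 to 0.96, 1.44-fold, edgeR adjusted p = 0.188), and without DN 2, DN 3 and control 2 it was 0.39 (edgeR adjusted p = 0.0710). Both arms of the hairpin had fold changes of the same sign. The difference in its 5p to 3p ratio did not pass the test (log2 difference -0.15, SE 0.273, 95% CI -0.73 to 0.42, limma adjusted p = 0.725). The summed renal epithelial markers were also higher in germacrone libraries than in control libraries, apart from an overlap at 173118 to 174964 CPM, and their part in the miR-362 difference was not tested.

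miR-500-3p, both arms of miR-501 and the 3p arm of miR-532 had fold changes of the other sign, none past the test. miR-500-3p had a lowest, median and highest value of 128, 160.5 and 181 CPM in the germacrone group and 179, 222 and 280.4 CPM in the control group, and of the germacrone libraries only the highest, germacrone 5, lay above any control library. Its log2 fold change was -0.52 (SE 0.243, 95% CI -1.03 to -0.0089, 0.699-fold, edgeR adjusted p = 0.253), with 6 of 6 germacrone libraries below the control median. miR-501-5p averaged 39.9 ± 10.2 CPM in the germacrone group and 56.7 ± 18.4 CPM in the control group (log2 fold change -0.51, SE 0.300, edgeR adjusted p = 0.363). miR-532-3p averaged 75.4 ± 9.005 CPM in the germacrone group and 95.5 ± 24.9 CPM in the control group (log2 fold change -0.34, SE 0.203, edgeR adjusted p = 0.365). For both, 6 of 6 germacrone libraries lay below the control median. miR-501-3p, the seed partner of miR-500-3p, averaged 306 ± 102 CPM in the germacrone group and 378 ± 171 CPM in the control group (log2 fold change -0.30, SE 0.360, edgeR adjusted p = 0.683). Its sign was not stable: with the GC slope of each library, described below, as a covariate, the log2 fold change was 0.37 (edgeR adjusted p = 0.416).

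The miR-188 arms lay between these. miR-188-5p had a log2 fold change of -0.094 in germacrone-treated DN against control (SE 0.177, 95% CI -0.46 to 0.27, edgeR adjusted p = 0.771), with 5 of 6 germacrone libraries below the control median. miR-188-3p had one of -0.17 (SE 0.718, 95% CI -1.68 to 1.33). The median log2 fold change of the 9 tested arms was -0.17, beside -0.0035 over all 619 entries; in germacrone against DN it was -0.093 beside -0.054, and in DN against control -0.0014 beside 0.075. Scaling by library size alone, in place of TMM, moved the log2 fold changes of the 619 entries by a median of -0.21 in germacrone against control and -0.14 in germacrone against DN. Under that scaling miR-532-5p had a log2 fold change of -0.033 in germacrone against control, against 0.18 with TMM, while the miR-362 arms stayed above 0 and the miR-500-3p, miR-501 and miR-532-3p arms below it.

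**Figure D3:**
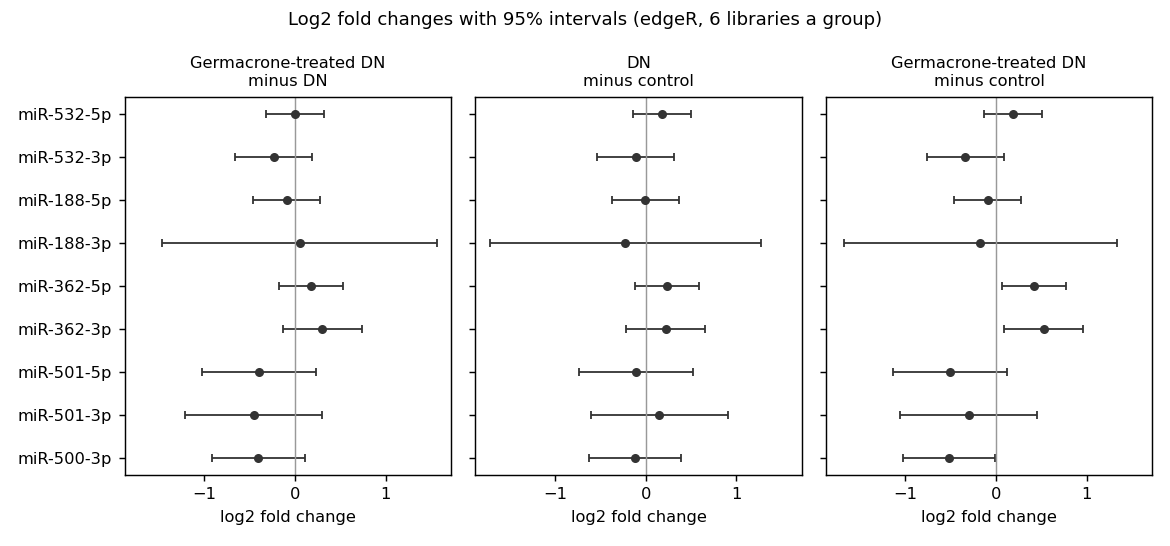
Log2 fold changes (x axis) with 95% intervals for 9 arms of the cluster, in germacrone-treated DN minus DN, DN minus control and germacrone-treated DN minus control, from edgeR on 6 libraries a group. The intervals of miR-188-3p reach from -1.71 to 1.56, and those that leave out 0 are those of miR-362-5p, miR-362-3p and miR-500-3p in germacrone-treated DN minus control.

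Arm usage was tested per hairpin as the log2 ratio of 5p to 3p reads, with limma over the 136 hairpins that had both arms at a mean of 5 reads or more. Of these, 0 passed an adjusted p under 0.05 in each comparison (0%), and at an unadjusted p under 0.05 there were 6 in germacrone against DN (4.41%), 10 in DN against control (7.35%) and 30 in germacrone against control (22.1%). Among the 4 hairpins of the cluster that were tested, miR-532 in germacrone against control was the only one under that unadjusted level in any comparison. Its 5p arm was favoured more in the germacrone group than in the control group, by a log2 difference of 0.49 (SE 0.207, 95% CI 0.052 to 0.92, limma adjusted p = 0.187). The difference was 0.20 in germacrone against DN (limma adjusted p = 0.832) and 0.29 in DN against control (limma adjusted p = 0.836). For miR-188 it was -0.54 in germacrone against control with an SE of 0.881, and for miR-501 -0.22 (SE 0.237). The miR-188 value depends on control 4, listed at 0 on the 3p arm, whose log2 ratio of 8.59 comes from the 0.5 reads added to each arm. Without control 4 the miR-188 difference was 0.19. miR-500 was left out of the ratio test by the read minimum on its 5p arm.

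Libraries also differed in how strongly their read counts depended on base composition. For each library the slope of log2 CPM, centred per entry, on GC content was taken over 368 mouse entries outside the cluster with a RefSeq sequence, which covered 364 of 432 names (84.3%). It is given as log2 CPM per 10% GC and is positive where GC-rich microRNAs were high. The slope averaged -0.13 ± 0.13 in the germacrone group, 0.016 ± 0.26 in the DN group and 0.12 ± 0.30 in the control group (SD, n = 6 each). The highest slopes were those of control 2 (0.63), DN 3 (0.50), control 3 (0.24), control 5 (0.16) and DN 2 (0.11), and 5 of 6 germacrone libraries were below 0.

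Several arms of the cluster followed that slope. The 5 libraries just named were also the 5 highest for miR-500-3p, at 263 to 367 CPM, against 128 to 184 CPM in the other 13, and for miR-501-5p, at 60.9 to 106 CPM against 27.8 to 50.1 CPM. Over the 18 libraries, Pearson's r of log2 CPM with the slope was 0.91 for miR-501-3p (Spearman's rho 0.94), 0.81 for miR-500-3p (rho 0.66), 0.81 for miR-501-5p (rho 0.81), 0.80 for miR-532-3p (rho 0.67) and -0.87 for miR-362-3p (rho -0.66). It was 0.50 for miR-188-5p (rho 0.34), 0.19 for miR-532-5p (rho 0.063), 0.18 for miR-188-3p (rho 0.22) and 0.11 for miR-362-5p (rho 0.12). Without DN 3 and control 2, the libraries with the highest slopes, r was 0.85 for miR-501-3p, 0.77 for miR-500-3p, 0.85 for miR-501-5p, 0.61 for miR-532-3p, -0.61 for miR-362-3p and 0.26 for miR-188-5p. Within groups, with group means removed, r was 0.94 for miR-501-3p, 0.77 for miR-500-3p, 0.77 for miR-501-5p, 0.76 for miR-532-3p and -0.86 for miR-362-3p. For the remaining arms it was 0.49 for miR-362-5p, 0.48 for miR-188-5p, 0.40 for miR-532-5p and 0.24 for miR-188-3p. These are descriptions of 9 arms that share their libraries, with no test.

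An arm's own GC content went with these values in part. Over the 18 libraries, the arms lowest in GC, miR-362-3p at 40.9% and miR-362-5p at 41.7%, had the lowest r, -0.87 and 0.11. The arm highest in GC, miR-532-3p at 63.6%, had 0.80. However, miR-501-5p, at 45.5%, had 0.81, while miR-188-5p, at 61.9%, had 0.50 and miR-188-3p, at 57.1%, had 0.18. miR-500-3p and miR-501-3p, both at 54.5%, had 0.81 and 0.91. The low r of miR-362-5p did not hold with group means removed. There it was 0.49, above miR-188-5p (0.48), miR-532-5p (0.40) and miR-188-3p (0.24). With the slope as a covariate, an alternative chosen after the data had been seen, the log2 fold change of germacrone against control was 0.54 for miR-362-5p (edgeR adjusted p = 0.121), against 0.42 without it. It was 0.27 for miR-362-3p, against 0.52, and -0.18 for miR-500-3p, against -0.52. What made the slopes of the libraries differ was not tested.

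**Figure D4:**
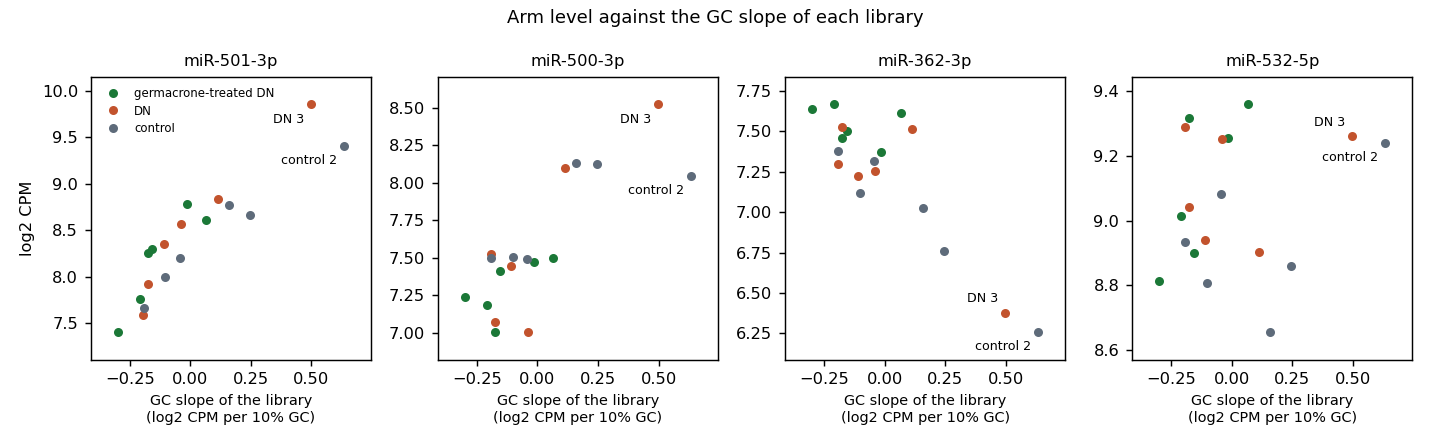
Log2 CPM (y axis) of 4 arms against the GC slope of each library (x axis, log2 CPM per 10% GC); points are the 18 libraries, colored by group. miR-501-3p and miR-500-3p are high and miR-362-3p is low in control 2 and DN 3, the libraries with slopes of 0.63 and 0.50, while miR-532-5p shows no such order.

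Arms from the same intron had different patterns over the libraries. Among the 36 pairs of 9 arms, the median Pearson r of log2 CPM over 18 libraries was 0.056, beside 0.0022 over the 191271 pairs of all tested entries. The highest values joined arms of different hairpins: 0.94 for miR-500-3p with miR-501-5p (rho 0.88), 0.86 for miR-500-3p with miR-532-3p, and 0.86 for miR-501-5p with miR-532-3p. The seed partners miR-500-3p and miR-501-3p had 0.71 (rho 0.52), and miR-362-5p had 0.71 with miR-532-5p (rho 0.73). miR-362-3p ran against miR-532-3p (-0.75), miR-501-3p (-0.73), miR-500-3p (-0.73) and miR-501-5p (-0.70). These are also the 5 arms with the largest r with the GC slope in size, and all pairs share libraries and depth. With control 2 and DN 3 left out, the first 3 pairs named had 0.91, 0.81 and 0.84. miR-501-3p then had 0.49 with miR-500-3p and 0.42 with miR-532-3p. miR-362-3p had -0.49 with miR-532-3p, -0.37 with miR-501-3p, -0.56 with miR-500-3p and -0.58 with miR-501-5p.

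The 2 arms of a hairpin come from the same precursor, and even they did not always move together. Their r was 0.79 for miR-501, 0.20 for miR-362, 0.069 for miR-532 and -0.094 for miR-188. Without control 2 and DN 3 it was 0.67 for miR-501, 0.64 for miR-362, -0.21 for miR-532 and -0.12 for miR-188. Over all 18 libraries with group means removed, it was 0.80 for miR-501, -0.23 for miR-362, 0.23 for miR-532 and -0.077 for miR-188. For miR-188 the 3p arm was measured by 0 to 26 reads a library. The neighbour that miR-188-5p resembled most was miR-532-3p (r 0.67, rho 0.65, and 0.57 without control 2 and DN 3), while with miR-532-5p, whose hairpin is the closest to its own, r was 0.043.

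**Figure D5:**
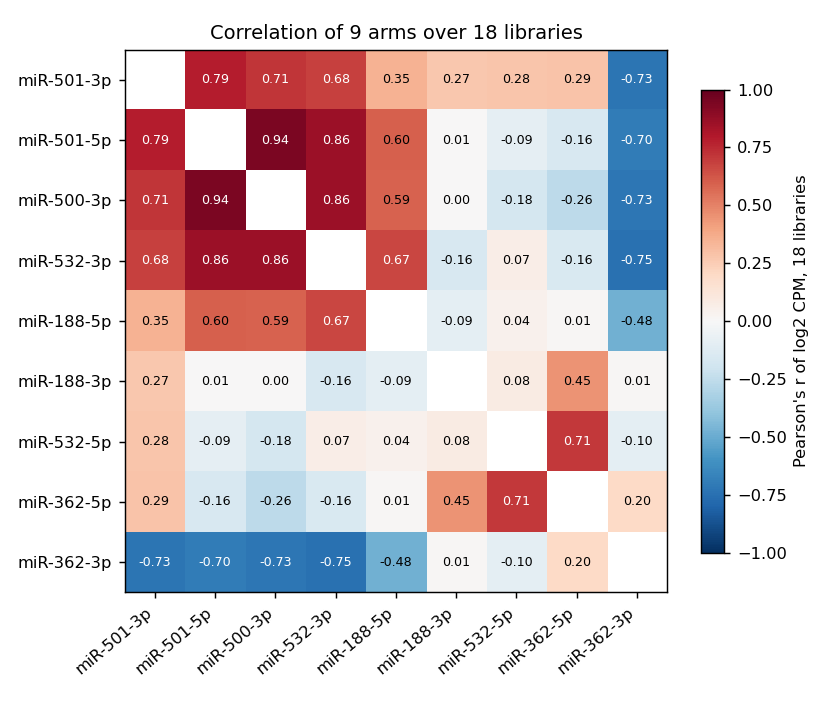
Pearson's r of log2 CPM between 9 arms of the cluster over 18 libraries, with red for positive and blue for negative values. The arms miR-501-3p, miR-501-5p, miR-500-3p and miR-532-3p form a block of 0.68 to 0.94, and miR-362-3p has -0.70 to -0.75 with each of them. With control 2 and DN 3 left out, not drawn here, the block is 0.42 to 0.91 and the miR-362-3p values are -0.37 to -0.58.

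Outside the cluster, the entries most like each arm over the 18 libraries were taken from 323 mouse entries with a mean of 10 CPM or more. They were picked as the 3 highest in r and were not tested. Over all pairs of tested entries the quartiles of r were -0.31 and 0.32. Those pairs were not picked for a high r, so the quartiles are no measure for the 3 highest of 323. The entries most like miR-188-5p were miR-672-5p (r 0.77), miR-345-5p (0.68) and miR-23b-3p (0.67). For miR-362-3p they were miR-322-5p (0.91), miR-19b-3p (0.89) and miR-7a-1-3p (0.88). For miR-501-3p they were miR-744-5p (0.97), miR-423-3p (0.95) and miR-181b-5p (0.95), and for miR-500-3p miR-674-5p (0.94), miR-652-3p (0.93) and miR-324-5p (0.92). For miR-362-5p they were miR-152-5p (0.85), miR-210-3p (0.75) and miR-351-5p (0.73), for miR-532-5p miR-196a-1-3p (0.67), miR-351-5p (0.63) and miR-152-5p (0.59), and for miR-532-3p miR-484 (0.88), miR-700-3p (0.84) and miR-324-5p (0.83). Thus miR-362-5p and miR-532-5p had miR-152-5p and miR-351-5p in common, and miR-500-3p and miR-532-3p had miR-324-5p. miR-188-5p, miR-362-3p and miR-501-3p each shared none of their 3 with another arm.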

How the data were processed

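RNA was extracted with Trizol, made into TruSeq Small RNA libraries and sequenced on an Illumina HiSeq, and reads were filtered with ACGT101-miR, per the labels' protocols. The submitters' processing notes name Trimmomatic 0.32, BWA, SAMtools and edgeR. The raw columns of the deposited table hold estimated counts (75.7% of named values above 0 are whole). The deposited normalized columns hold a signal, equal to the raw value multiplied by a constant of the library (0.664 to 1.43), used only in an alternative. The 350 unnamed entries (0.0136% to 0.148% of a library) were left out. Estimated counts were rounded, which moved no total by over 0.000437%; every value of the listed arms was whole.

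The 1184 named entries passed filterByExpr by group (minimum count 10), which kept 619. edgeR 4.0.16 (R 4.3.3) fitted all 18 libraries with the group as factor, TMM factors and the quasi-likelihood test, with a threshold of adjusted p under 0.05. Arm ratios, log2((5p + 0.5)/(3p + 0.5)), were tested with limma 3.58.1. Entries named are the listed arms, other arms of their hairpins and, for each listed arm at 10 CPM or more, the 3 entries with the highest r. The members and lists were chosen with earlier results of these data known. The fits were also run on simulated counts that varied less than these data and held no outlying library. That run does not measure their power here. Replicate numbers are not stated to pair the libraries. The r of same-numbered libraries was -0.33 to 0.26, and it was not set beside that of differently numbered ones, so it does not decide this. Sequences and coordinates are from RefSeq and GENCODE. Alternatives included DESeq2 1.42.0 and limma-voom. A row named for Chinese hamster miR-532-5p (0 to 33 reads) was not added to the mouse arm.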

Additional observations from a re-analysis of the deposited data

Results flagged for a closer look

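Of 48 groups of 6 libraries looked at, 2 held a library whose gap to its nearest neighbour, divided by the range of the group, was over Dixon's critical value of 0.625; chance gives about 1 in 20. Both were DN 3 in the DN group. miR-362-3p was at 82.8 CPM in DN 3, with the nearest DN library at 149 CPM (gap to range 0.652). miR-501-3p was at 924 CPM in DN 3, with the nearest DN library at 458 CPM (gap to range 0.637).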

How the results depend on the processing

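Depth limits miR-188-3p, with 0 to 26 reads a library, and miR-500-5p, with 0 to 15. Values of a few reads are scarce in the table, strain goes with disease, and 3 libraries stand apart. Over 39 fold changes and arm ratios, 34 settings gave 1131 values, of which 1008 kept the direction and the side of the threshold, 119 changed sign and 4 passed the threshold newly, those of limma-voom given above. The miR-362 arms kept their direction in all 3 comparisons under every setting run, and so did miR-500-3p in germacrone-treated DN against control (-0.74 to -0.18). Why values changed with the setting was not tested.

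The count of entries with an adjusted p under 0.05, 0 in every comparison with edgeR, stayed at 0 in germacrone-treated DN against DN under each alternative. In DN against control it was 4 with DESeq2, 2 under the filter of 10 CPM, 2 with the GC slope as a covariate, 91 with limma-voom, 1 without control 2 and DN 3, and 51 without control 2, DN 2 and DN 3. In germacrone-treated DN against control it was 24 with DESeq2, 1 with the GC slope, 106 with limma-voom, 56 with only the 2 groups compared in the fit, 3 without control 2 and DN 3, and 50 without control 2, DN 2 and DN 3. Leaving out each library in turn gave 0 to 6 entries in DN against control (6 without DN 2, 6 without DN 3, 1 without control 2) and 0 to 7 in germacrone-treated DN against control (7 without DN 2, 3 without DN 3). The count of hairpins with a changed arm ratio, 0 with limma, was 2 in DN against control without control 2, DN 2 and DN 3. In germacrone-treated DN against control it was 1 with a pseudocount of 2 reads, 1 without control 2, DN 2 and DN 3, and 0 to 1 when each library was left out (1 without DN 6 and 1 without control 6).

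Whether replicate numbers pair the libraries is not known. With the replicate block the count of entries was 0 in each comparison, and the log2 fold change of miR-188-3p in germacrone-treated DN against DN was -0.0017, the only sign change under the block.

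Some log2 fold changes and arm ratios changed sign under an alternative. With the GC slope as a covariate the value was -0.096 for the miR-188 arm ratio and 0.043 for miR-188-5p in DN against control, 0.081 for the miR-362 arm ratio, -0.10 for the miR-501 arm ratio and 0.042 for miR-501-3p in germacrone-treated DN against DN, 0.28 for the miR-362 arm ratio, 0.028 for miR-188-5p and 0.37 for miR-501-3p in germacrone-treated DN against control. Leaving out control 2 and DN 3 the value was -0.034 for the miR-188 arm ratio and -0.0048 for miR-501-3p in DN against control, 0.023 for the miR-362 arm ratio, -0.0066 for the miR-501 arm ratio and -0.0054 for miR-188-3p in germacrone-treated DN against DN, 0.059 for the miR-362 arm ratio in germacrone-treated DN against control. Leaving out control 2, DN 2 and DN 3 the value was 0.015 for the miR-362 arm ratio, -0.00031 for the miR-501 arm ratio, -0.011 for miR-188-3p, 0.029 for miR-500-3p, 0.10 for miR-501-3p, 0.11 for miR-501-5p and -0.024 for miR-532-5p in germacrone-treated DN against DN, 0.059 for the miR-362 arm ratio in germacrone-treated DN against control, -0.19 for miR-501-3p in DN against control. Under limma-voom with sample weights the value was 0.26 for miR-188-3p and -0.11 for miR-501-3p in DN against control, -0.27 for miR-188-3p, 0.016 for miR-188-5p and 0.061 for miR-501-5p in germacrone-treated DN against DN. With the deposited normalization factors the value was -0.0069 for miR-188-3p and -0.057 for miR-532-5p in germacrone-treated DN against DN, 0.019 for miR-188-5p in DN against control. With library size only the value was -0.057 for miR-188-3p and -0.14 for miR-532-5p in germacrone-treated DN against DN, -0.033 for miR-532-5p in germacrone-treated DN against control. With only the 2 groups compared in the fit the value was -0.025 for miR-188-3p and -0.070 for miR-532-5p in germacrone-treated DN against DN, 0.054 for miR-188-5p in DN against control. With entries of one name summed the value was 0.012 for miR-188-5p in DN against control, -0.039 for miR-532-5p in germacrone-treated DN against DN. Under the filter of 10 CPM in 6 libraries the value was 0.016 for miR-188-5p in DN against control, -0.052 for miR-532-5p in germacrone-treated DN against DN. With no filter the value was 0.013 for miR-188-5p in DN against control, -0.0012 for miR-532-5p in germacrone-treated DN against DN. Under DESeq2 the value was -0.044 for miR-532-5p in germacrone-treated DN against DN. With RLE factors the value was -0.044 for miR-532-5p in germacrone-treated DN against DN.

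Values that changed sign when single libraries were left out are given as the lowest and highest over the 18 fits. In germacrone-treated DN against DN, they were -0.92 to 0.14 for the miR-188 arm ratio, -0.26 to 0.023 for the miR-362 arm ratio, -0.11 to 0.17 for the miR-501 arm ratio, -0.25 to 0.29 for miR-188-3p, -0.085 to 0.034 for miR-532-5p. In DN against control, they ran -0.67 to 0.77 for the miR-188 arm ratio, -0.17 to 0.23 for the miR-362 arm ratio, -0.46 to 0.13 for miR-188-3p, -0.093 to 0.12 for miR-188-5p, -0.33 to 0.034 for miR-500-3p, -0.22 to 0.45 for miR-501-3p, -0.42 to 0.088 for miR-501-5p, -0.22 to 0.046 for miR-532-3p. In germacrone-treated DN against control, the range was -0.94 to 0.19 for the miR-188 arm ratio, -0.24 to 0.059 for the miR-362 arm ratio, -0.44 to 0.18 for miR-188-3p.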
